A study of Mus musculus with 6 samples.

Results

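The 30 genes described here encode enzymes that break down macromolecules in the lysosome and the proteins that activate those enzymes. They were chosen by symbol, not by expression, from the 55492 genes of the expression table, and the cathepsins were left out. O4 is a surface sulfolipid epitope of late oligodendrocyte progenitors and of the oligodendrocytes they form. Cells bearing it were captured on magnetic beads from dissociated whole brains, and their poly(A) RNA was sequenced with 1 library per mouse. There were 3 WT and 3 *Npc1*-/- mice, littermates of 16 days of age (P16). Both genotypes were untreated. The *Npc1*-/- mice were F1 hybrids bred from *Npc1*+/- parents on the BALB/cJ and C57BL6/J backgrounds and carried the nih allele of *Npc1*, a germline loss-of-function allele, so that the loss was not limited to the oligodendrocyte lineage. The comparison asks how loss of the lysosomal cholesterol transporter NPC1 alters RNA levels in these cells.

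Lysosomal enzymes are made in the endoplasmic reticulum, tagged with mannose 6-phosphate in the Golgi and carried by receptors to the lysosome, where they degrade lipids, glycosaminoglycans, glycoproteins, proteins and nucleic acids in acid. Inherited loss of most of them causes a lysosomal storage disease, and loss of several that act on myelin lipids causes a leukodystrophy. NPC1 acts at the end of this route, exporting the cholesterol that the enzymes set free. Many of these genes carry near their start the CLEAR motif bound by the transcription factor TFEB and its relatives. In the set, HGSNAT is a membrane protein of the lysosome and SUMF1 works in the endoplasmic reticulum, so the name "lysosomal hydrolase" does not cover them.

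Promoters were read for the genes found in RefSeq's table for GRCm38.p6, in windows from 250 bases before to 50 bases after the annotated start of transcription. Of the 30 genes 26 were matched, with 27 windows, and *Aga*, *Asah1*, *Galns* and *Hgsnat* were not matched. The palindrome TCACGTGA, the centre of the CLEAR motif, and the shorter CACGTG that it contains were searched, and each reads alike on both strands. CACGTG was present in 7 of the 27 windows (25.9%) and in 2349 of all 32851 windows (7.15%). TCACGTGA was present in 2 of the 27 (7.41%), those of *Gla*, which holds 2 copies, and *Sumf1*, and in 320 of all windows (0.974%). The 7 stretches that hold CACGTG are shown because these are the promoters of the set with the letters that TFEB binds. They run 5′ to 3′ on the strand of the gene, from up to 30 bases before the motif to at most 12 bases after it, with the motifs in capitals.
Arsa: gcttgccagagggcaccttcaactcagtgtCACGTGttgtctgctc
Gaa: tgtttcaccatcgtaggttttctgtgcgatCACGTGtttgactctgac
Gla: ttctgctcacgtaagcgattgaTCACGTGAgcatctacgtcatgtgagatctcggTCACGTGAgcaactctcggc
Glb1: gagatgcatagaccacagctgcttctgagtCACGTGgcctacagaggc
Naglu: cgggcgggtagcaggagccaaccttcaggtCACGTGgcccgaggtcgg
Sgsh: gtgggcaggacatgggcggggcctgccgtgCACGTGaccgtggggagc
Sumf1: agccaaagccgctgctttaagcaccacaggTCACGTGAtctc

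On GRCm38.p6 these stretches are chr15:89477425-89477470 (*Arsa*, minus strand), chr11:119267793-119267840 (*Gaa*, plus), chrX:134601181-134601255 (*Gla*, minus), chr9:114401000-114401047 (*Glb1*, plus), chr11:101069991-101070038 (*Naglu*, plus), chr11:119355522-119355569 (*Sgsh*, minus) and chr6:108185584-108185625 (*Sumf1*, minus). The motif ends 4 bases before the start in *Sumf1*, 10 in *Arsa*, 23 in *Sgsh*, 42 in *Glb1*, 67 in *Naglu*, 134 in *Gaa* and, for the first of its 2 motifs, 220 in *Gla*. A match of these letters is a description of the sequence, not a measured binding site.

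Expression was compared in TPM (a level per transcript length, scaled to the same total in every library) divided by a size factor for each library, called scaled TPM below. Differences are log2 fold changes of scaled TPM + 0.5, *Npc1*-/- relative to WT, so a value above 0 is higher in *Npc1*-/- mice. They were tested with limma over the 15245 genes whose mean TPM reached 0.5. A gene was called where the Benjamini-Hochberg adjusted p was below 0.05 and the log2 fold change was 0.1 or more from 0. Depth was estimated from the spacing of low FPKM values and lay between 40250000 and 50000000 fragments per library. *Npc1* itself was at 53.3, 50.4 and 45.5 TPM in WT mice and at 4.10, 4.42 and 3.16 TPM in *Npc1*-/- mice (log2 fold change -3.17, adjusted p = 0.000398, limma), as the labels require. *Npc1*-/- replicate 3 alone had *Xist* (15.57 TPM, at most 0.01 TPM in the others) and was listed at 0 for *Ddx3y*, so 1 mouse differed in sex from the other 5. Markers of mature oligodendrocytes were abundant in every library, with *Mbp* alone at 221600 TPM on average, and markers of other brain cells were present too and are given after the enzymes. In bulk RNA, fewer cells of a type and less RNA per cell cannot be told apart.

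All 30 genes were expressed in the O4-purified cells and passed the filter. The mean scaled TPM over the 6 mice ran from 1.23 for *Galns*, which removes sulfate from keratan sulfate and chondroitin 6-sulfate, to 322.4 for *Psap*, the prosaposin precursor of the 4 saposins that present sphingolipids to their hydrolases. This is a 263-fold range. The median was 13.5, against 7.64 over all genes tested. *Psap* and *Arsb* lay above 50, 9 genes between 20 and 50, 13 between 5 and 20, and 6 below 5 (*Manba*, *Pla2g15*, *Dnase2a*, *Idua*, *Gla* and *Galns*). *Psap* gave 37.7% of the summed scaled TPM of the set, and *Psap* with *Arsb* gave 49.5%.

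**Figure D1:**
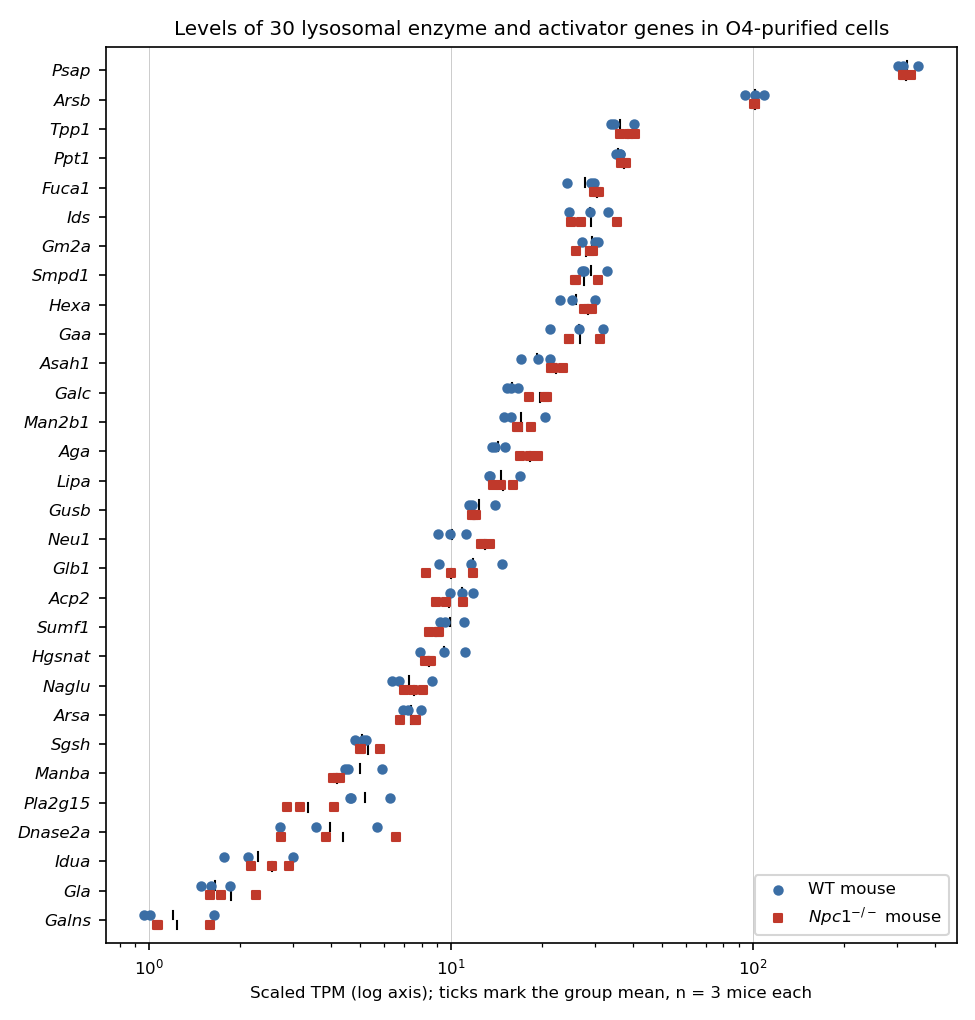
Scaled TPM of each of the 30 genes on a log axis, ordered by level. Circles are the 3 WT mice, squares the 3 *Npc1*-/- mice and black ticks the group means. *Psap* (322.4 on average) and *Arsb* (101.5) stand above the rest, and for most genes the mice of both genotypes lie among each other.

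None of the 30 genes passed the call. This was 0 called higher, where 0.400% of all genes tested were called higher, and 0 called lower, where 0.413% were, so a count of 0 among 30 genes is near the background and is no result about the set. The adjusted p (limma) lay between 0.0949 and 0.998. At an unadjusted p below 0.05, 3 genes were higher (*Galc*, *Neu1* and *Aga*, 10% of the set) and 1 was lower (*Pla2g15*, 3.33%), against 10.6% higher and 11.6% lower over all genes. In 6 genes (20%) every *Npc1*-/- mouse was above every WT mouse, and in 3 genes (10%) every one was below, against 13.3% and 14.2% of all genes. Both counts changed when 1 mouse was left out. Without WT replicate 1 the count of 6 above became 13 (16.6% of all genes). Without *Npc1*-/- replicate 1 or WT replicate 3 the count of 3 below became 5 (21.4% and 19.6% of all genes). With 3 mice against 3, an exact two-sided permutation test of a single gene cannot go below 0.1.

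The differences were small. The log2 fold change was above 0 in 18 genes and below 0 in 12, with a median of 0.025 against 0.008 over all genes, and 23 of the 30 lay within 0.2 of 0. The median absolute log2 fold change was 0.092 for the set and 0.183 for all genes. These 2 values were not matched for expression level, which had a median of 13.5 scaled TPM in the set and 7.64 over all genes. The 95% interval lay within a 1.5-fold difference (0.585 on the log2 scale) in either direction for 25 of the 30 genes and within a 2-fold difference for all 30. The half-width of the interval ran from 0.173 for *Ppt1* to 0.789 for *Dnase2a*. In TPM as deposited, without size factors, the median of all genes was itself at -0.326 and that of the set at -0.337, and 18 of the 30 genes changed sign, among them all 6 whose *Npc1*-/- mice lay above the WT mice.

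**Figure D2:**
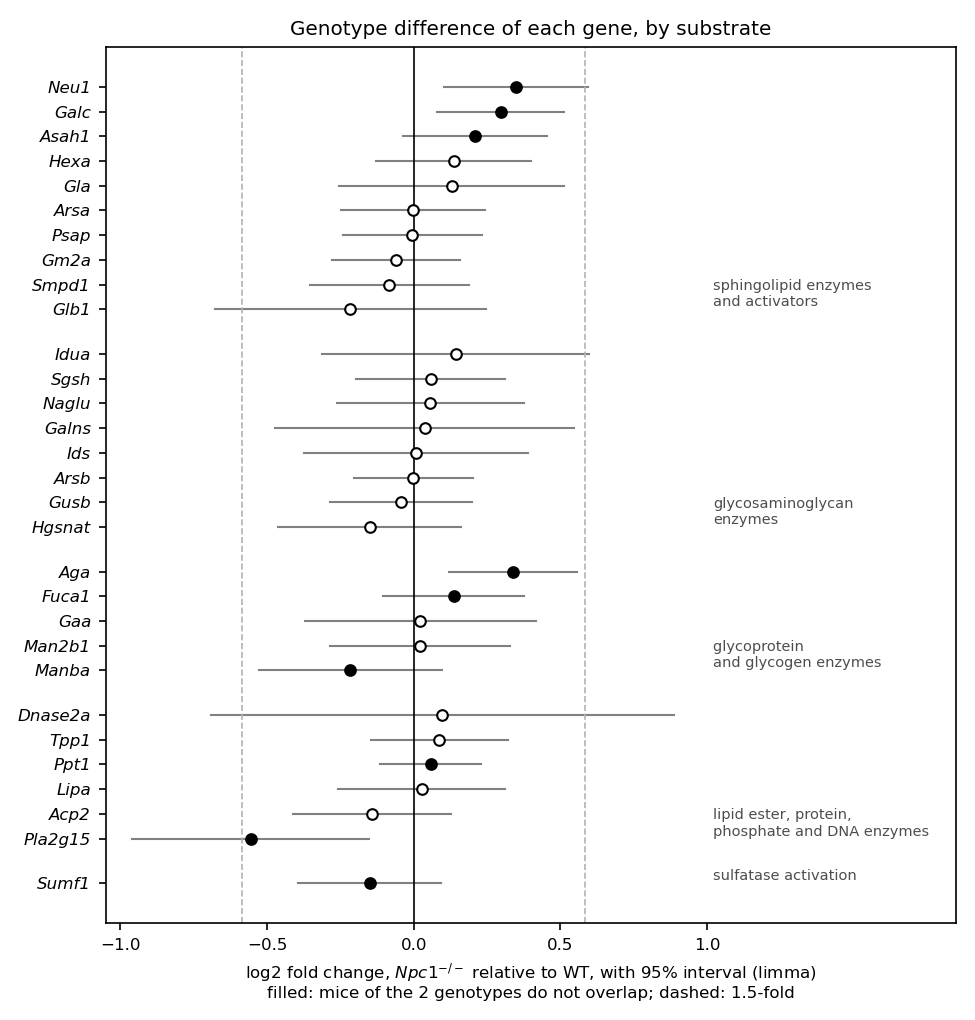
Log2 fold change of each gene, *Npc1*-/- relative to WT, with its 95% interval from limma, grouped by the substrate of the enzyme. Filled circles are the 6 genes with every *Npc1*-/- mouse above and the 3 with every one below the WT mice, and dashed lines mark a 1.5-fold difference, which 5 of the 30 intervals cross.

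The 10 genes for sphingolipid breakdown divided evenly, 5 above 0 and 5 below, with a median log2 fold change of 0.064 and none called. *Galc* encodes galactosylceramidase, which degrades the main galactolipid of myelin and is lost in Krabbe disease. It was at 15.4, 16.7 and 15.9 scaled TPM in WT mice and 20.8, 18.1 and 20.4 in *Npc1*-/- mice. Every *Npc1*-/- mouse was above every WT mouse, with a fold of 1.23 (log2 fold change 0.30, SE 0.092, adjusted p = 0.119, limma). The gene lies at chr12:98202294-98259459 on the minus strand of GRCm38, and an antisense RNA gene overlaps it on the other strand.

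*Neu1*, the lysosomal sialidase that trims sialic acid from gangliosides and glycoproteins, was at 11.2, 9.98 and 9.07 in WT mice and 13.4, 12.6 and 12.8 in *Npc1*-/- mice. The groups did not overlap, and the fold was 1.27 (log2 fold change 0.35, SE 0.104, adjusted p = 0.111, limma). It lies at chr17:34931253-34935953. *Asah1*, acid ceramidase, which splits ceramide to sphingosine, was at 21.3, 19.4 and 17.1 in WT mice and 23.6, 21.7 and 21.5 in *Npc1*-/- mice. Here the lowest *Npc1*-/- mouse was only just above WT replicate 1 (log2 fold change 0.21, SE 0.105, adjusted p = 0.3, limma), and without WT replicate 3 the log2 fold change was 0.12. It lies at chr8:41340197-41374773 on the minus strand.

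The activator *Psap* had the highest level of the set and nearly equal means in both genotypes. It was at 353.4, 302.3 and 314.2 scaled TPM in WT mice and 316.6, 314.2 and 333.8 in *Npc1*-/- mice (log2 fold change -0.005, 95% interval -0.242 to 0.232, adjusted p = 0.983, limma). WT replicate 1 was the highest of the 6 and the other 5 lay between 302.3 and 333.8. The other activator, *Gm2a*, which lifts GM2 ganglioside out of the membrane for hexosaminidase, was at 29.3 ± 1.94 (SD, n = 3) in WT and 28.1 ± 1.87 in *Npc1*-/- mice. *Hexa*, the α subunit of that hexosaminidase, was at 26.1 ± 3.64 and 28.5 ± 0.816 (log2 fold change 0.14, adjusted p = 0.534, limma).

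*Arsa*, the sulfatase that degrades the myelin lipid sulfatide and whose promoter holds the motif shown above, was at 7.38 ± 0.547 in WT and 7.37 ± 0.503 in *Npc1*-/- mice. *Smpd1*, acid sphingomyelinase, whose loss causes Niemann-Pick disease types A and B, was at 29.2 ± 3.20 and 27.6 ± 2.83 (log2 fold change -0.083, 95% interval -0.354 to 0.188). *Glb1*, the β-galactosidase of GM1 ganglioside, was at 11.8 ± 2.81 and 10.1 ± 1.79 (log2 fold change -0.22, SE 0.196). *Gla*, the α-galactosidase lost in Fabry disease, is on the X chromosome and was at 1.65 ± 0.184 and 1.87 ± 0.356. The genotypes overlapped in all of these. Without *Npc1*-/- replicate 3, the mouse of the other sex, the log2 fold change of *Gla* was 0.21 in place of 0.13, and it was not called either way.

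The 8 enzymes of glycosaminoglycan breakdown lay close to 0 throughout. None was called, in none did the genotypes separate, the median log2 fold change was 0.023 and the range ran from -0.15 to 0.143. *Arsb*, the sulfatase of dermatan sulfate and chondroitin 4-sulfate, was the second most abundant gene of the set. It was at 94.1, 108.6 and 102.1 scaled TPM in WT mice and 101.7, 101.5 and 101.0 in *Npc1*-/- mice (log2 fold change -0.001, 95% interval -0.203 to 0.201). The 3 *Npc1*-/- mice lay within the range of the WT mice. Its gene is at chr13:93771630-93943016.

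Of the heparan sulfate enzymes, *Naglu*, an exo-enzyme for N-acetylglucosamine, was at 7.27 ± 1.22 in WT and 7.53 ± 0.567 in *Npc1*-/- mice (SD, n = 3). *Sgsh*, the sulfamidase, was at 5.07 ± 0.215 and 5.30 ± 0.470, and *Hgsnat*, the acetyltransferase that works between them, was at 9.52 ± 1.61 and 8.45 ± 0.215. All 3 overlapped between genotypes. *Ids*, the iduronate sulfatase lost in Hunter syndrome, is X-linked and was at 28.9 ± 4.23 and 29.2 ± 5.63. Its log2 fold change of 0.008 became -0.15 (adjusted p = 0.583, limma) without *Npc1*-/- replicate 3.

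*Idua*, the iduronidase lost in Hurler syndrome, was at 2.296 ± 0.630 in WT and 2.55 ± 0.365 in *Npc1*-/- mice. *Gusb*, β-glucuronidase, was at 12.4 ± 1.37 and 11.96 ± 0.181, and *Galns* was at 1.21 ± 0.379 and 1.24 ± 0.3. *Idua* is crossed on the other strand by *Dgkq* and *Slc26a1*, so its value is uncertain if reads were counted without strand. The 5 sulfatases of the set (*Arsa*, *Arsb*, *Sgsh*, *Ids* and *Galns*) had log2 fold changes from -0.002 to 0.058. *Sumf1*, the enzyme that converts a cysteine of every sulfatase to the formylglycine of its active site, was at 11.1, 9.60 and 9.21 in WT mice and 9.10, 8.47 and 9.15 in *Npc1*-/- mice. Every *Npc1*-/- mouse was below every WT mouse, *Npc1*-/- replicate 3 only just below WT replicate 3 (log2 fold change -0.15, SE 0.104, adjusted p = 0.455, limma), and without WT replicate 1 the log2 fold change was -0.075. The gene lies at chr6:108107028-108185582 on the minus strand and, of the 7 with the motif, is the one whose genotypes did not overlap.

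Among the 5 glycoprotein and glycogen enzymes, *Aga* had the lowest adjusted p of all 30. It encodes aspartylglucosaminidase, which cuts the link between sugar chains and asparagine. It was at 13.7, 15.1 and 14.1 scaled TPM in WT mice and 18.4, 19.5 and 16.9 in *Npc1*-/- mice. Every *Npc1*-/- mouse was above every WT mouse (a fold of 1.27, log2 fold change 0.34, SE 0.093, adjusted p = 0.0949, limma). *Aga* lies at chr8:53511727-53523421, and no annotated gene overlaps it.

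*Fuca1*, which removes fucose, was at 29.8, 29.2 and 24.2 in WT mice and 30.4, 29.9 and 30.9 in *Npc1*-/- mice. The genotypes did not overlap, but 2 of the WT mice lay within 1 scaled TPM of the lowest *Npc1*-/- mouse (log2 fold change 0.14, SE 0.102, adjusted p = 0.491, limma), and without WT replicate 3 the log2 fold change was 0.039. *Manba*, β-mannosidase, was at 5.94, 4.58 and 4.45 in WT mice and 4.20, 4.07 and 4.29 in *Npc1*-/- mice. All 3 *Npc1*-/- mice were below, and the WT mean was raised by WT replicate 1, without which the log2 fold change of -0.22 became -0.097 (adjusted p = 0.764, limma). *Man2b1*, the α-mannosidase, was at 17.1 ± 2.95 and 17.2 ± 1.06. *Gaa*, the acid α-glucosidase of glycogen that is lost in Pompe disease, was at 26.6 ± 5.32 and 26.8 ± 3.89, and both overlapped between genotypes.

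The last 6 enzymes act on lipid esters, proteins, phosphates and DNA. *Lipa*, acid lipase, frees cholesterol from the esters of lipoproteins and so makes the cholesterol that NPC1 exports. It was at 14.6 ± 2.02 scaled TPM in WT and 14.9 ± 1.20 in *Npc1*-/- mice (log2 fold change 0.028, 95% interval -0.258 to 0.313, adjusted p = 0.924, limma). *Pla2g15*, the lysosomal phospholipase A2, had the largest difference of the 30 in either direction. It was at 6.27, 4.64 and 4.67 in WT mice and 2.86, 3.17 and 4.10 in *Npc1*-/- mice. Every *Npc1*-/- mouse was below every WT mouse, with a fold of 0.681 from the log2 fold change (-0.56, SE 0.172, adjusted p = 0.119, limma). Without WT replicate 1 the value was -0.42 (adjusted p = 0.312, limma). The gene lies at chr8:106150399-106164715.

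*Ppt1*, the thioesterase that takes palmitate off proteins, and *Tpp1*, a tripeptidyl peptidase, are the enzymes lost in the infantile and late infantile forms of neuronal ceroid lipofuscinosis. *Ppt1* was at 36.4, 36.2 and 35.2 in WT mice and 37.7, 37.9 and 36.6 in *Npc1*-/- mice. The genotypes did not overlap, yet the difference was 1.04-fold (log2 fold change 0.058, SE 0.074, adjusted p = 0.7, limma). *Tpp1* was at 40.5, 34.8 and 34.0 in WT mice and 38.8, 40.9 and 36.3 in *Npc1*-/- mice, which overlapped through WT replicate 1. *Acp2*, the lysosomal acid phosphatase, was at 10.9 ± 0.951 and 9.84 ± 1.04.

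*Dnase2a*, the acid nuclease, had the largest SE of the set. It was at 5.69, 2.72 and 3.58 in WT mice and 2.74, 3.85 and 6.58 in *Npc1*-/- mice (log2 fold change 0.098, SE 0.335). The genotypes overlapped over most of their ranges, with the highest value in an *Npc1*-/- mouse, and *Mast1* overlaps the gene on the other strand. In all, 11 of the 30 genes are overlapped by a gene on the other strand, and whether reads were counted by strand is not stated. On the same strand 5 of the 30 are overlapped by an annotated gene, among them *Glb1* by the protein-coding *Tmppe*.

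The mice also differed within a genotype across many of the genes. WT replicate 1 was the highest of the 3 WT mice in 24 of the 30 genes, WT replicate 2 in 4 and WT replicate 3 in 2. The median deviation from the WT mean was 0.15 for WT replicate 1, -0.042 for WT replicate 2 and -0.106 for WT replicate 3 on the log2 scale, and it lay between -0.014 and 0.048 in the *Npc1*-/- mice. The spread of these medians among WT mice was wider than the distance between the genotypes. The coefficient of variation within a genotype had a median of 11.1% over the 30 genes in WT and 6.99% in *Npc1*-/- mice. The summed level of the set was 910.9, 829.0 and 810.5 scaled TPM in WT mice and 868.8, 849.0 and 868.2 in *Npc1*-/- mice, the latter inside the WT range.

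**Figure D3:**
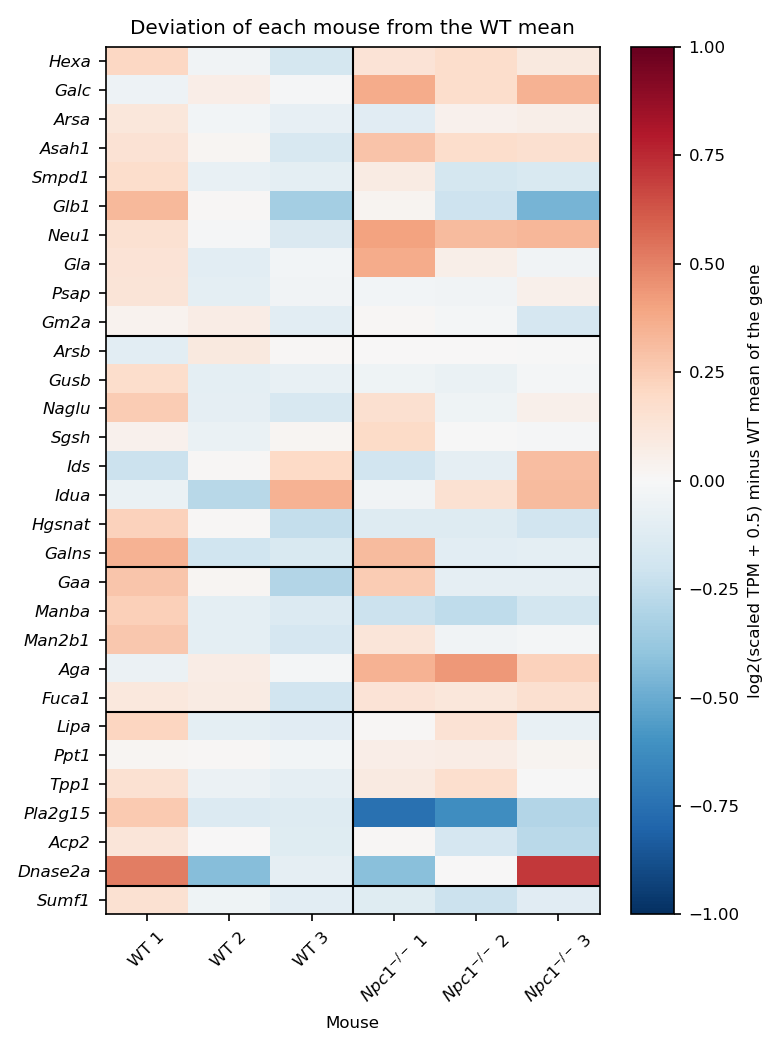
Deviation of each mouse from the WT mean of each gene, on the log2(scaled TPM + 0.5) scale, with 1 column per mouse and black lines between the substrate groups and the genotypes. Most of the column of WT replicate 1 is red (median deviation 0.15), and the rows of *Neu1*, *Galc* and *Aga* are red in all 3 *Npc1*-/- mice.

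The 7 genes with CACGTG in the promoter had a median log2 fold change of 0.023 (from -0.216 for *Glb1* to 0.13 for *Gla*), and the 19 matched genes without it had a median of 0.022 (from -0.555 to 0.349). Of the 6 genes with every *Npc1*-/- mouse above the WT mice, *Galc*, *Neu1*, *Fuca1* and *Ppt1* were matched and their windows did not hold these letters, while *Aga* and *Asah1* were not matched. The levels differed, with a median of 7.40 scaled TPM in the 7 and 17.9 in the 19. Neither difference was tested.

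The wider pathway was read from 3 lists. Of 21 other lysosomal hydrolases and luminal proteins, 1 was called higher and 0 lower, with a median log2 fold change of -0.12. In 7 of them every *Npc1*-/- mouse was above the WT mice and in 4 every one was below, where the shares over all genes were 13.3% and 14.2%, and 0.400% of all genes were called higher. The gene called was *Arsg*, a sulfatase of heparan sulfate that needs SUMF1 like the 5 above. *Arsg* was at 11.1, 9.81 and 13.3 scaled TPM in WT mice and 22.8, 26.5 and 30.1 in *Npc1*-/- mice. It rose 2.26-fold (log2 fold change 1.18, SE 0.146, adjusted p = 0.0364, limma), and each *Npc1*-/- mouse was well above each WT mouse.

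*Arsg* was called in 10 of 17 alternative analyses. Leaving out 1 mouse took the adjusted p (limma) to 0.126 without WT replicate 1, 0.13 without WT replicate 2, 0.0747 without WT replicate 3, 0.055 without *Npc1*-/- replicate 1 and 0.187 without *Npc1*-/- replicate 2, and its log2 fold change stayed between 0.81 and 1.29 over all 17. The gene lies at chr11:109473374-109573330, with *Slc16a6*, a monocarboxylate transporter, on the other strand inside that span. *Slc16a6* was at 2.87 ± 0.826 in WT and 2.65 ± 0.937 in *Npc1*-/- mice (SD, n = 3, log2 fold change -0.11, adjusted p = 0.847, limma), and its genotypes overlapped.

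Of the 10 genes that tag the enzymes and carry them to the lysosome, none was called, at a median log2 fold change of 0.16. In 4 every *Npc1*-/- mouse was above every WT mouse and in 0 below (13.3% and 14.2% of all genes). The summed level of all 10 was between 288.0 and 307.0 scaled TPM in WT mice and between 335.2 and 340.8 in *Npc1*-/- mice, which do not overlap. This sum includes *Sort1* (mean 35.6 in WT and 57.4 in *Npc1*-/- mice). The separation holds in scaled TPM only. With the size factors multiplied back in (1.295, 1.106 and 1.039 in WT and 1.102, 0.855 and 0.727 in *Npc1*-/- mice), the sums of the genotypes overlap. No share over all genes was computed for a sum. *Sort1*, sortilin, a sorting receptor that carries prosaposin and acid sphingomyelinase, was at 34.3, 32.6 and 40.0 in WT mice and 50.2, 54.5 and 67.6 in *Npc1*-/- mice (1.60-fold, log2 fold change 0.67, SE 0.135, adjusted p = 0.0584, limma). Its cargoes *Psap* and *Smpd1* had log2 fold changes of -0.005 and -0.083. *Cln8*, which loads newly made lysosomal enzymes for export from the endoplasmic reticulum, was at 10.99, 10.1 and 11.9 in WT mice and 15.6, 16.0 and 15.1 in *Npc1*-/- mice (1.40-fold, log2 fold change 0.48, SE 0.095, adjusted p = 0.057, limma). Both lay just outside the threshold, and both passed it when the filter was a mean TPM of at least 5 (adjusted p = 0.0443 for *Sort1* and 0.0418 for *Cln8*, limma). Without any filter the adjusted p (limma) was 0.128 and 0.122, and each was called in 2 of 17 alternatives. In TPM as deposited their log2 fold changes were 0.31 and 0.12.

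Of the 5 transcriptional regulators of lysosomal genes, none was called, and the median log2 fold change was -0.020. *Flcn*, folliculin, which holds TFEB relatives in the cytoplasm in fed cells, was at 16.2, 17.5 and 18.2 in WT mice and 20.5, 22.8 and 22.0 in *Npc1*-/- mice (log2 fold change 0.33, SE 0.089, adjusted p = 0.0949, limma), and its log2 fold change was -0.038 in TPM as deposited. *Zkscan3*, a repressor of lysosomal and autophagy genes, was at 10.9, 10.8 and 10.7 and at 10.01, 10.5 and 8.81 (log2 fold change -0.14, SE 0.098, adjusted p = 0.466, limma). These are RNA levels, and the activity of TFEB is set largely by where the protein is in the cell, which was not measured.

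Other cell types differed between the libraries in the same comparison. Of 12 microglia markers, 11 had a log2 fold change below 0, at a median of -0.81, and 1, *Tmem119*, was called lower (0.413% of all genes). In 6 of the 12 every *Npc1*-/- mouse was below every WT mouse (14.2% of all genes). The log2 fold changes of *Aif1* (-0.007), *Tyrobp* (-0.005) and *Trem2* (0.039) lay near 0. The summed level of all 12 microglia markers was 231.6 to 371.8 scaled TPM in WT mice, highest in WT replicate 1, and 115.0 to 217.1 in *Npc1*-/- mice. The markers were present in all libraries. *P2ry12*, one of the 6 that did not overlap, was at 46.4, 24.9 and 31.7 in WT mice and 12.8, 16.5 and 20.1 in *Npc1*-/- mice. Of 5 perivascular macrophage markers, 3 were called lower (*Mrc1*, *Cd163* and *F13a1*), against 0.413% of all genes. The summed level of all 5 was 14.2 to 24.96 in WT and 3.55 to 5.27 in *Npc1*-/- mice. WT replicate 1, the highest WT mouse in 24 of the 30 enzyme genes, was also the highest WT mouse in both of these sums. It was the highest WT mouse in the endothelial, pericyte, astrocyte, neuron, progenitor and activated microglia sums too. In the immature and mature oligodendrocyte sums it was the lowest WT mouse. Macrophages and microglia are rich in lysosomal enzymes, and their part in the values of the 30 genes was not tested.

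For the other cell types no marker was called (limma). Over all genes tested, every *Npc1*-/- mouse was above every WT mouse in 13.3% and below in 14.2%. Of 5 endothelial markers, 4 had every *Npc1*-/- mouse below every WT mouse, and the summed scaled TPM was 811.5 to 918.4 in WT and 399.1 to 683.5 in *Npc1*-/- mice. Of 4 pericyte markers, 3 had every *Npc1*-/- mouse below, and the sums were 328.3 to 486.6 and 198.2 to 250.4. Of 5 astrocyte markers, *Aqp4*, *Aldh1l1*, *Slc1a3* and *Gja1* had every *Npc1*-/- mouse below, with a list median of -0.42. The fifth, *Gfap*, had every one above (81.2, 100.2 and 85.2 in WT and 111.6, 186.7 and 271.5 in *Npc1*-/- mice), so that the sums overlapped. No neuron marker of 5 separated the genotypes and the lowest adjusted p (limma) was 0.192, although all 5 log2 fold changes were above 0, and the sums lay just apart (76.2 to 110.2 and 112.3 to 142.6). For activated microglia the sums over all 7 markers overlapped (12.96 to 17.6 and 11.5 to 21.7). Of the 4 that passed the filter, 1 had every *Npc1*-/- mouse above and 1 had every one below. In the oligodendrocyte lineage, none of 4 progenitor markers separated the genotypes (sums 79.2 to 85.8 and 60.3 to 89.1). Of 5 immature markers, 3 were below 0 at a list median of -0.135, and *Itpr2* had every *Npc1*-/- mouse below. Their sum (2271 to 3343 and 3166 to 5838) was mostly *Bcas1*, which overlapped. All 6 mature markers were above 0 at a median of 0.392, and 1 had every *Npc1*-/- mouse above. Their sums, mostly *Mbp*, overlapped (171700 to 242700 and 217200 to 431300).

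**Figure D4:**
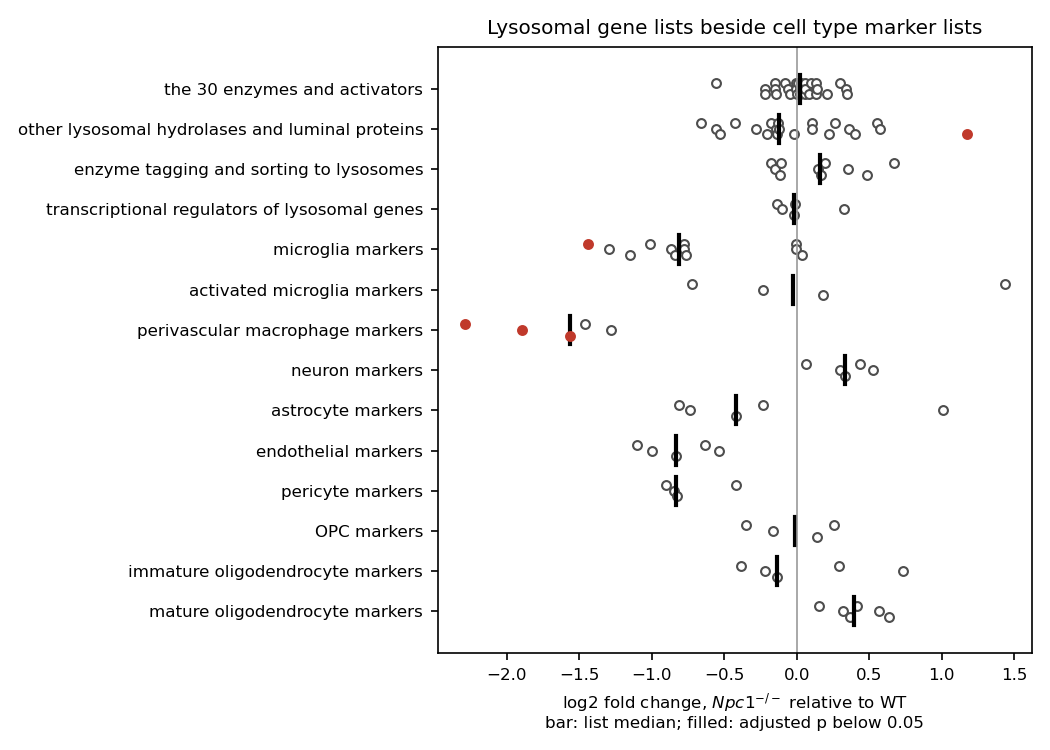
Log2 fold change of each gene, *Npc1*-/- relative to WT, by list, with the list median as a black bar and genes called at an adjusted p below 0.05 filled. The 30 enzymes and activators crowd around 0 (median 0.025), with *Arsg* (1.18) far to the right among the other lysosomal hydrolases. The medians of the microglia (-0.81) and perivascular macrophage markers (-1.56) lie to the left, while some microglia markers lie near 0.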

How the data were processed

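RNA from O4-microbead-purified brain cells of 3 WT and 3 *Npc1*-/- mice was compared. The authors deposited TPM and FPKM for 55492 genes with 2 decimals, and FPKM was TPM times 1 factor per sample. The study's methods name bbduk, STAR, featureCounts and DESeq2 on GRCm38, and the submitters' processing notes list cutadapt 2.3, STAR 2.7.8a and RSEM 1.3.3. Which of these made the deposited TPM and FPKM, and whether strand was used, is not given in the sources used here. Depth was found by fitting low FPKM values to whole multiples of 1 fragment, and 82.0% to 86.5% of the values fitted lay within 0.15 of a whole number. Evenly spread values would give 30% at a fixed depth. Depth and fragment length were chosen for the best fit to the same values, so the 2 shares are not a fair comparison. TPM was divided by median-of-ratios size factors (0.727 to 1.295), and log2 was taken after adding a pseudocount of 0.5. The 15245 genes whose mean TPM reached 0.5 were tested for genotype alone in limma (version 3.58.1, R 4.3.3, eBayes with a mean-variance trend). Calls used the limits of the study, whose own test was on counts, namely 0.05 for the adjusted p and 0.1 for the size of the log2 fold change.

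In data simulated for *Npc1*-/- against WT over 15245 genes, 200 genes were given a log2 change of 1.5, of which 166 (83%) were called, with 4 false calls. That change is larger than any in the set (the largest was -0.555, *Pla2g15*), and the noise was drawn for each gene independently. The share called therefore does not apply to differences of the size seen in the 30 genes. Positions came from GENCODE M21 and promoters from RefSeq. All 30 genes were to be named, with every mouse's value for genes called, not overlapping between genotypes or among the 5 highest in mean TPM. From each pathway list the called genes and the 2 largest absolute log2 fold changes were named. 1 result that this rule selects is not reported here. *Mbp*, *P2ry12*, *Slc16a6* and the cell type markers named are outside this rule and were chosen after values were seen. The genes and lists were chosen with earlier results of these data known, so no test over a list was run. Alternatives were other scalings, FPKM, pseudocounts, filters, variance models, a replicate block, a curve on transcript length and each mouse left out.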

Additional observations from a re-analysis of the deposited data

How the results depend on the processing

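No gene of the set was called under any of the 17 alternatives except *Aga* with the replicate block, and the lowest adjusted p (limma) of the 30 genes lay between 0.0453 and 0.22. In TPM as deposited the median log2 fold change of the set was -0.337 (all genes -0.326) and 0 genes had every *Npc1*-/- mouse above every WT mouse (2.58% of all genes). That count was 3 after quantile normalization (13.3% of all genes). At a mean TPM of at least 5, which kept 24 of the 30 genes, 1 gene had every *Npc1*-/- mouse below (13.8% of all genes). With each mouse left out in turn, the count above ran from 5 to 13 (13 without WT replicate 1), the count below from 3 to 5, and the median log2 fold change from -0.027 to 0.093. With 2 mice left in a genotype, groups also separate more often among all genes (16.2% to 21.5% above and 16.3% to 21.4% below). The labels do not state whether the replicate numbers pair the mice, so it is unknown whether the main test, without a replicate block, left out a pairing. Deviations of the same-numbered samples correlated at 0.414, 0.0602 and 0.326. Each sample correlated best with its own number, but *Npc1*-/- replicate 2 correlated almost equally with WT replicate 3 (0.0548). These values do not decide whether the mice were paired. A replicate block gave 1 called gene higher in the set (*Aga*, adjusted p = 0.0453, limma) where 7.5% of all genes were called higher. Over all genes the calls were 61 higher and 63 lower, against 1143 and 868 with the replicate block, 14 and 7 with no filter, 175 and 272 at a mean TPM of at least 5, 26 and 16 without trend, 92 and 133 after quantile normalization, 54 and 870 in TPM as deposited, and from 4 and 1 without *Npc1*-/- replicate 2 to 106 and 371 without *Npc1*-/- replicate 3. The causes of these differences were not tested.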
